A study of Mus musculus with 3 samples.

Results

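Neutrophil granule genes were examined in RNAseq of the whole incisor enamel organ, the epithelium that forms enamel, from mice aged 4 weeks. The genes were chosen by symbol: Mpo, Elane and Prtn3 of the primary granules, Ltf, Lcn2, Camp and Ngp of the secondary granules, the alarmins S100a8 and S100a9, and the chemokine receptor Cxcr2. All 10 were found among the 20937 genes of the deposited count table, and all 10 passed the filter on low counts, which kept 18702 genes. Each genotype gave 1 library: Stim1 cKO (Stim1 fl/fl Cre+), Stim1 HT (Stim1 fl/wt Cre+) and Stim1 Ctrl (Stim1 fl/fl Cre-). The Cre transgene, AmelX-iCre, is driven in ameloblasts, so neutrophils are not a cell type in which this Cre is meant to delete Stim1. Stim1 HT and Stim1 Ctrl served as grouped controls, and all 3 genotypes carried at least 1 floxed Stim1 allele. The labels name ameloblasts as the cell type, while the study describes the whole enamel organ, with no cell sorting named.

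Neutrophils mature in the bone marrow through an ordered series of stages, and their granules are filled in that order. Promyelocytes transcribe the genes of the primary granules, myelocytes and metamyelocytes those of the secondary granules, and these transcripts largely disappear before the cell enters the blood. S100a8 and S100a9 transcripts stay abundant in mature neutrophils, and Cxcr2 marks cells that are ready to leave the marrow. The 7 granule genes were therefore taken as precursor genes, and S100a8, S100a9 and Cxcr2 as mature neutrophil genes. Several of the 10 are not confined to neutrophils, since Ltf and Lcn2 are also secreted by glandular and mucosal epithelia and S100a8 and S100a9 are also made by monocytes and stressed keratinocytes.

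The promoters of 4 of the genes are given to show where factors of the granulocyte lineage could be looked for in genes that differed between libraries in unlike ways: Elane and Ngp, which were low in Stim1 cKO, S100a8, which lay near Stim1 Ctrl, and Ltf, which was high. Each sequence is the 150 bases before the most upstream start annotated by RefSeq or GENCODE, from RefSeq on GRCm38.p6, plus strand. Capitals mark 2 motifs searched on both strands, TTGCNNAA (the core bound by C/EBP factors) and GAGGAA (a core of PU.1 sites). No matches of the 2 motifs overlapped. All 10 genes matched a RefSeq promoter, of which 6 had 150 bases clear of annotated exons.
Elane, chr10:79886097-79886246: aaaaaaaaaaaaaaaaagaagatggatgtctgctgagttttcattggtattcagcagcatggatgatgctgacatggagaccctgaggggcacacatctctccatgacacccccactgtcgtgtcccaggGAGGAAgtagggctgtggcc
Ngp, chr9:110419597-110419746: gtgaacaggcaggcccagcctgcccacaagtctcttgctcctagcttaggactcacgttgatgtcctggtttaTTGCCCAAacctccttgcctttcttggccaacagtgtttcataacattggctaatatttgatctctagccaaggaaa
S100a8, chr3:90668828-90668977: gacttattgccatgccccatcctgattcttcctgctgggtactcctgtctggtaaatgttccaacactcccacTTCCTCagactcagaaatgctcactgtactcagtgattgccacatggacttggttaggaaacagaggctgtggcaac
Ltf, chr9:111019121-111019270: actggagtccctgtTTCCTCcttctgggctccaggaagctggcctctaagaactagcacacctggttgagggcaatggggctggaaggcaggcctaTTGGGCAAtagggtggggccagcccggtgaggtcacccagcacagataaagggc
The window of Elane held 1 match to GAGGAA and 0 to TTGCNNAA, and that of S100a8 also held 1 and 0. The window of Ngp held 1 match to TTGCNNAA and 0 to GAGGAA. That of Ltf held 1 of each. Among 32851 RefSeq promoters, 5.46% had TTGCNNAA and 14.5% had GAGGAA in the 150 bases before the RefSeq start. A match describes letters only and is not evidence of binding.

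Total counts were between 20216507 and 28265960 per library. Levels are given as TMM-scaled CPM, a measure per library size on which the detection limit used here, 3 counts, equals 0.117 to 0.152 CPM. Stim1, the targeted gene, was at 72.8 CPM in Stim1 cKO against 129 in Stim1 HT and 186 in Stim1 Ctrl. Amelx, the main enamel matrix gene and a marker of the tissue, was at 2065, 20020 and 14090 CPM in the same order. Col1a1, a collagen gene of bone and connective tissue, was above Amelx in each library, at 21090, 22640 and 37270 CPM. With 1 library per genotype, the only spread available to a test was that between both controls, whose genotypes are unlike, and no difference has a replicate check. The study used male mice, and Ddx3y of the Y chromosome had 991 counts in Stim1 cKO against 1587 in Stim1 HT and 2058 in Stim1 Ctrl. Xist, the RNA of the inactive X chromosome, had 10897 counts in Stim1 cKO against 36 and 1 in the Stim1 HT and Stim1 Ctrl libraries. Stim1 cKO thus held RNA of both kinds. Its part in the results was not tested. In bulk RNA, fewer cells of a type and less RNA per cell cannot be told apart.

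Of the 10 genes, 8 were lower in Stim1 cKO than in both controls, 1 (Ltf) was higher than in both and 1 (Lcn2) lay between them. The difference exceeded 2-fold against both controls in 7 genes, namely Mpo, Elane, Prtn3, Camp, Ngp, S100a9 and Cxcr2. Over all genes tested, 8.23% were over 2-fold below both controls, and 19.1%, as Ltf was, were over 2-fold above both. The median log2 fold change of the 10 genes against the grouped controls was -2.32, against -0.01 over all genes tested. In edgeR's quasi-likelihood test, 0 of the 10 were called at an adjusted p under 0.01 and a fold change over 2, a threshold passed by 0.0749% of all genes. An unadjusted p under 0.05 was reached by 7 lower genes and 1 higher gene, where 31.9% of all genes reached it in either direction. DESeq2, the test that the study used, called 6 of the 10 as lower (Mpo, Elane, Prtn3, Camp, Ngp and S100a9) and 0 as higher. Its share of calls over all genes was 5.26% lower and 6.3% higher.

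**Figure D1:**
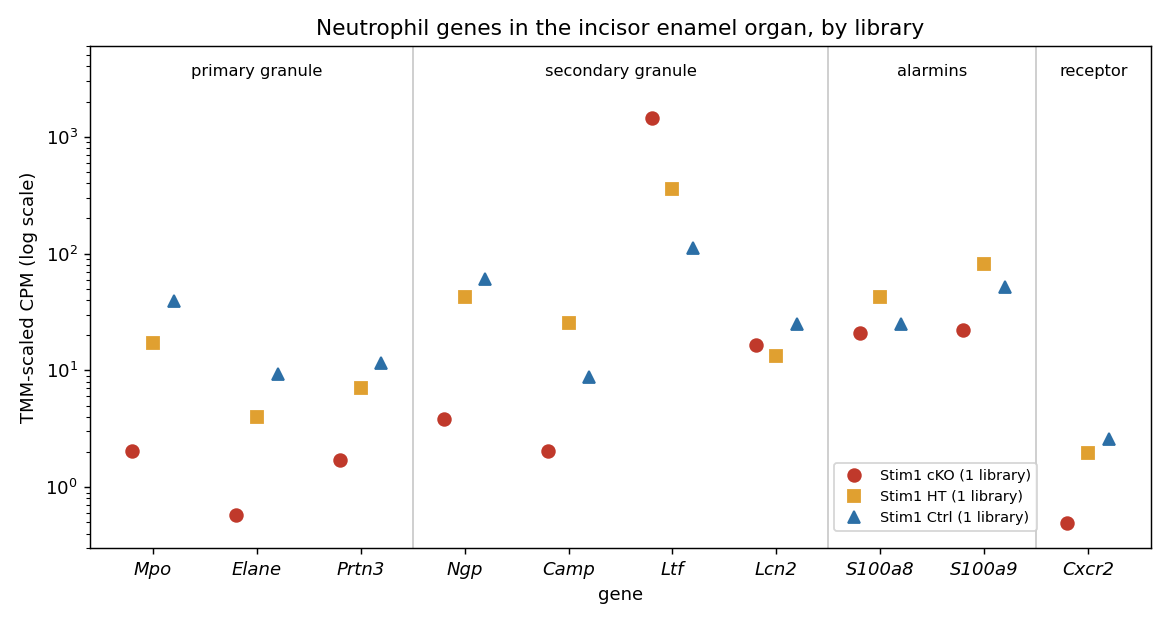
TMM-scaled CPM (log axis) of the 10 genes in the Stim1 cKO, Stim1 HT and Stim1 Ctrl libraries, 1 point per library, grouped by the role of the protein. Mpo, Elane, Prtn3, Ngp, Camp, S100a9 and Cxcr2 were below both controls in Stim1 cKO by over 2-fold, while Ltf stood above them at 1441 CPM.

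The primary granule genes were lowest in Stim1 cKO, intermediate in Stim1 HT and highest in Stim1 Ctrl. Mpo, on chromosome 11 from 87793581 to 87804413, encodes myeloperoxidase, which makes hypochlorous acid. It had 49 counts in Stim1 cKO against 335 in Stim1 HT and 1001 in Stim1 Ctrl, or 2.02, 17.0 and 38.9 CPM. Stim1 cKO was 8.40-fold below Stim1 HT and 19.2-fold below Stim1 Ctrl, and the controls themselves differed 2.29-fold. Against the grouped controls Mpo had a log2 fold change of -3.79 at an adjusted p of 0.0361 in edgeR and of 1.13e-07 in DESeq2 (standard error 0.644), and the adjusted p ranged from 1.13e-07 to 0.0475 over the fits tried. The exons of Mpo overlap the antisense gene Gm11505, and whether strand was used in counting is not given in the sources used here, so their reads cannot be told apart.

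Elane, on chromosome 10 from 79886247 to 79888215, encodes neutrophil elastase, a serine protease. Elane had 14, 78 and 242 counts in Stim1 cKO, Stim1 HT and Stim1 Ctrl, or 0.578, 3.96 and 9.40 CPM. Its fold changes were near those of Mpo, 6.85-fold below Stim1 HT and 16.3-fold below Stim1 Ctrl. Elane thus differed by -3.52 on the log2 scale (adjusted p 0.0636 in edgeR and 0.00205 in DESeq2, standard error 0.949, with 0.00205 to 0.0821 over the fits tried). Prtn3 lies in the same cluster on chromosome 10, from 79874476 to 79883174, and encodes proteinase 3, a close relative of elastase. It had 41, 138 and 295 counts, or 1.69, 7.01 and 11.5 CPM, and was 4.14-fold below Stim1 HT and 6.77-fold below Stim1 Ctrl. Prtn3 had the smallest difference of the 3 genes, at -2.44 on the log2 scale (adjusted p 0.0661 in edgeR and 0.00637 in DESeq2, standard error 0.730, with 0.00637 to 0.0893 over the fits tried). Its exons overlap Plppr3 on the opposite strand.

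Within the primary granule genes, the make-up differed between libraries. Mpo held 47.1% of their counts in Stim1 cKO (95% Wilson interval 37.8-56.6) against 60.8% in Stim1 HT (56.7-64.8) and 65.1% in Stim1 Ctrl (62.7-67.4). Prtn3 held 39.4% in Stim1 cKO (30.6-49.0) against 25.1% in Stim1 HT (21.6-28.8) and 19.2% in Stim1 Ctrl (17.3-21.2). Elane held 13.5%, 14.2% and 15.7% in the same order, with overlapping intervals. All such intervals hold counting error alone.

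Of 4 further genes of the promyelocyte stage, all 4 were over 2-fold below both controls, with a median log2 fold change of -3.52. Ctsg, which encodes cathepsin G, had 6 counts in Stim1 cKO against 60 in Stim1 HT and 129 in Stim1 Ctrl. Fcnb, of ficolin-B, had 4, 46 and 109 counts. Ms4a3 had 5, 29 and 52 counts. Prss57, a serine protease gene, had 6, 11 and 13 counts and the smallest log2 fold change, -1.08. DESeq2 called Ctsg and Fcnb, and edgeR called 0 of the 4, with 3 at an unadjusted p under 0.05.

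The secondary granule genes differed in direction. Ngp, on chromosome 9 from 110419747 to 110423012, encodes neutrophilic granule protein. It had 93 counts in Stim1 cKO against 834 in Stim1 HT and 1565 in Stim1 Ctrl, or 3.84, 42.3 and 60.8 CPM. Stim1 cKO was 11.0-fold below Stim1 HT and 15.8-fold below Stim1 Ctrl, far more than the 1.44-fold between the controls. Ngp had the lowest edgeR adjusted p of the 10 genes, 0.0164, at a log2 fold change of -3.75. The DESeq2 adjusted p was 3.18e-14 (standard error 0.461), and over the fits tried it ranged from 3.18e-14 to 0.0258.

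Camp, on chromosome 9 from 109847379 to 109849617, encodes the cathelicidin antimicrobial peptide. Camp had 49 counts in Stim1 cKO against 506 in Stim1 HT and 225 in Stim1 Ctrl, or 2.02, 25.7 and 8.74 CPM. Its order among the controls was the reverse of that of Ngp, with Stim1 HT 2.94-fold above Stim1 Ctrl. Stim1 cKO was still 12.7-fold below Stim1 HT and 4.32-fold below Stim1 Ctrl. Camp had a log2 fold change of -3.08 at an adjusted p of 0.0757 in edgeR and 0.000501 in DESeq2 (standard error 0.748, 0.000501 to 0.113 over the fits tried). Camp made up 34.5% of the counts of Camp and Ngp in Stim1 cKO (27.2-42.6) against 37.8% in Stim1 HT (35.2-40.4) and 12.6% in Stim1 Ctrl (11.1-14.2).

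Ltf, on chromosome 9 from 111019271 to 111042767, encodes lactoferrin, an iron-binding protein of secondary granules and of glandular secretions. It had 34882 counts in Stim1 cKO against 7054 in Stim1 HT and 2872 in Stim1 Ctrl, or 1441, 358 and 112 CPM. Stim1 cKO was 4.02-fold above Stim1 HT and 12.9-fold above Stim1 Ctrl, and Stim1 HT was itself 3.21-fold above Stim1 Ctrl. The log2 fold change of Ltf was 2.62 at an adjusted p of 0.0731 in edgeR and 0.159 in DESeq2 (standard error 1.28), and 0.0285 to 0.159 over the fits tried, so Ltf was called by neither test. Ltf took 95.4% of the counts of the 10 genes in Stim1 cKO (95.2-95.6) against 60.4% in Stim1 HT (59.5-61.3) and 32.3% in Stim1 Ctrl (31.4-33.3). Summed over the 10 genes, counts were accordingly 0.170% of the library in Stim1 cKO against 0.0578% in Stim1 HT and 0.0314% in Stim1 Ctrl. Without Ltf, the order of Stim1 cKO and the controls turned, at 0.00788%, 0.0229% and 0.0213%.

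Lcn2, on chromosome 2 from 32384633 to 32388252, encodes lipocalin 2, which binds bacterial siderophores. Lcn2 had 397 counts in Stim1 cKO against 260 in Stim1 HT and 645 in Stim1 Ctrl, or 16.4, 13.2 and 25.1 CPM. The log2 fold change of -0.22 (adjusted p 0.762 in edgeR and 0.822 in DESeq2, standard error 0.571, with 0.72 to 0.955 over the fits tried) changed sign to 0.31 without Stim1 Ctrl and to 0.05 with library size as the only scaling, a scaling that moved the median of all genes to 0.25. No direction is given for Lcn2.

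Genes of proteins secreted by mucosal and salivary glands had, summed, the same order of libraries as Ltf. Of a list of 19 such genes, chosen after the counts were seen, 13 were over 2-fold above both controls in Stim1 cKO and 2 over 2-fold below both. Between the controls, 15 were over 2-fold higher in Stim1 HT than in Stim1 Ctrl, a share that was not counted over all genes. Their summed level was 10580 CPM in Stim1 cKO against 1421 in Stim1 HT and 443.6 in Stim1 Ctrl. Bpifa1, a secreted airway and oral protein gene, was at 1631, 307 and 184 CPM. Muc5b, of a gel-forming mucin, was at 2397, 236 and 9.17 CPM. Not all of the list had this order: Obp1a, of an odorant-binding protein, was at 970, 13.6 and 124 CPM, lowest in Stim1 HT. Dcpp1, at 91.5, 326 and 8.08 CPM, was highest in Stim1 HT, as were Bpifa2, Bpifb1 and Scgb3a1. The 2 genes over 2-fold below both controls ran against Ltf, Lpo at 0.909, 8.07 and 35.5 CPM and Pip at 2.52, 6.19 and 49.9 CPM. Each of the 19 was listed with at least 1 count in each library, and 7 of them were called as higher and 1 as lower by DESeq2. The part of these genes' source in the level of Ltf was not tested.

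**Figure D2:**
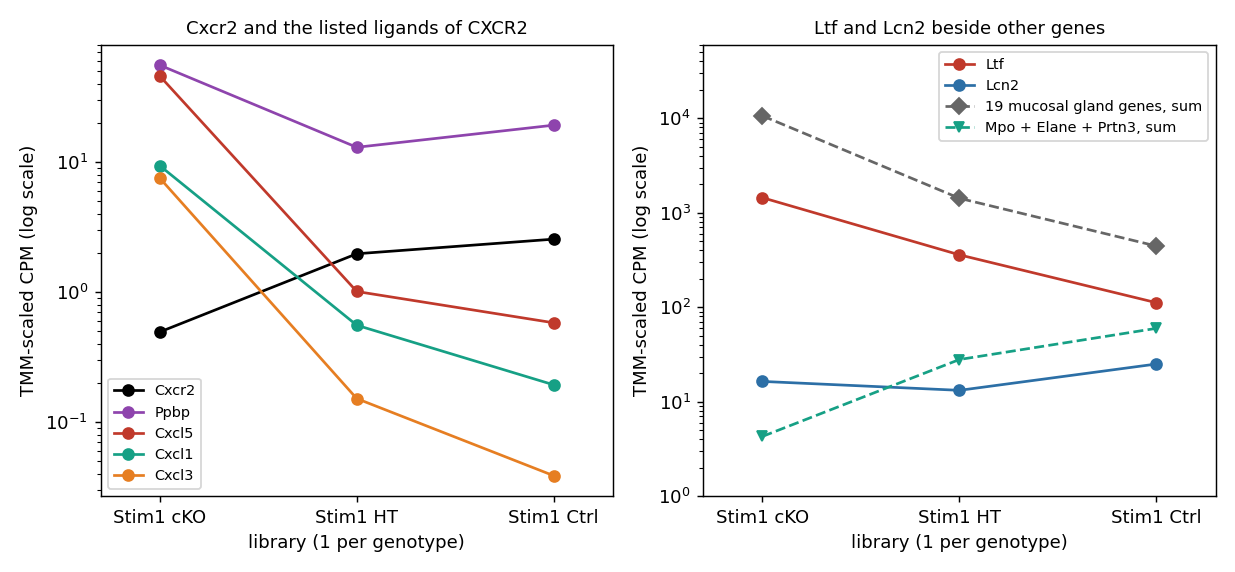
TMM-scaled CPM (log axis) in the 3 libraries, 1 per genotype, with lines joining the values of 1 gene or sum: on the left Cxcr2 and the 4 listed ligand genes of its product, on the right Ltf and Lcn2 beside the sum of 19 mucosal gland genes and the sum of Mpo, Elane and Prtn3. Cxcr2 was lowest and its ligands highest in Stim1 cKO. Ltf followed the order of the mucosal gland sum (10580, 1421 and 443.6 CPM), whose genes were chosen after the counts were seen. Ltf ran against the order of the primary granule sum (4.30, 28.0 and 59.8 CPM).

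Of 8 further genes of the secondary and later granules, 3 were over 2-fold above both controls and 2 over 2-fold below both, with a median log2 fold change of 0.60. Chil3, of a chitinase-like lectin, was lower with 31, 112 and 445 counts in Stim1 cKO, Stim1 HT and Stim1 Ctrl, and Mmp8, of neutrophil collagenase, with 24, 63 and 144. Cd177, of a neutrophil surface glycoprotein, was higher with 1367, 381 and 113 counts, in the order of Ltf. Olfm4, of olfactomedin 4, was higher with 308, 25 and 57 counts, and Orm1 with 44, 14 and 22. Hp (log2 fold change 0.63) and Cybb (0.58) were above both controls by less than 2-fold. DESeq2 called Chil3 as lower and Olfm4 as higher, and edgeR called 0 of the 8, with 2 lower and 2 higher at an unadjusted p under 0.05.

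The alarmins had smaller fold changes than the primary granule genes. S100a9, on chromosome 3 from 90692632 to 90695721, encodes a subunit of calprotectin, the calcium- and zinc-binding complex of neutrophil cytosol. It had 536 counts in Stim1 cKO against 1607 in Stim1 HT and 1331 in Stim1 Ctrl, or 22.1, 81.6 and 51.7 CPM. Stim1 cKO was 3.68-fold below Stim1 HT and 2.34-fold below Stim1 Ctrl, more than the 1.58-fold by which the controls differed. The log2 fold change of S100a9 was -1.59 at an adjusted p of 0.0608 in edgeR and 0.00192 in DESeq2 (standard error 0.427, 0.00192 to 0.105 over the fits tried).

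S100a8, on chromosome 3 from 90668978 to 90670035, encodes the partner subunit. S100a8 had 502, 835 and 642 counts in Stim1 cKO, Stim1 HT and Stim1 Ctrl, or 20.7, 42.4 and 25.0 CPM. Stim1 cKO was 2.04-fold below Stim1 HT but 1.20-fold below Stim1 Ctrl, less than the 1.70-fold between the controls. The log2 fold change was -0.70, and neither test called it (adjusted p 0.272 in edgeR and 0.337 in DESeq2, standard error 0.482, with 0.204 to 0.515 over the fits tried). S100a9 held 51.6% of the counts of the pair in Stim1 cKO (48.6-54.7) against 65.8% in Stim1 HT (63.9-67.7) and 67.5% in Stim1 Ctrl (65.4-69.5). S100a9 thus made up a smaller part of the pair in Stim1 cKO than in both controls.

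Of 3 receptor genes for the alarmins, 0 were over 2-fold from both controls in 1 direction. Tlr4 was at 10.4, 9.65 and 12.3 CPM in Stim1 cKO, Stim1 HT and Stim1 Ctrl, and its co-receptor gene Ly96 at 3.51, 3.15 and 2.68 CPM. Ager, of the receptor for advanced glycation end products, was at 7.89, 19.5 and 3.46 CPM, with Stim1 cKO between the controls. Neither edgeR nor DESeq2 called any of the 3, and 0 of the 3 had an unadjusted p under 0.05.

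Cxcr2, on chromosome 1 from 74153989 to 74161246, encodes the receptor through which ELR chemokines draw neutrophils from marrow into tissue. It had few reads, with 12 counts in Stim1 cKO against 39 in Stim1 HT and 66 in Stim1 Ctrl, or 0.496, 1.98 and 2.57 CPM. Stim1 cKO was 3.99-fold below Stim1 HT and 5.17-fold below Stim1 Ctrl, with 1.30-fold between the controls. For Cxcr2 this gave a log2 fold change of -2.19, and at these counts neither test called it (adjusted p 0.105 in edgeR and 0.224 in DESeq2, standard error 1.23, with 0.0858 to 0.224 over the fits tried).

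The ligand genes of CXCR2 were higher in Stim1 cKO, whereas the receptor gene was lower. Of 5 ligand genes, 4 were listed, and all 4 were over 2-fold above both controls in Stim1 cKO. Cxcl5 had 1116 counts in Stim1 cKO against 20 and 15 in the controls, at a log2 fold change of 5.86 (adjusted p 0.0132 in edgeR). Cxcl1 had 228, 11 and 5 counts, a log2 fold change of 4.66. Ppbp, whose product is stored in platelets, had 1353, 257 and 497 counts, a log2 fold change of 1.79. Cxcl3 had 183 counts in Stim1 cKO against 3 in Stim1 HT and 1 in Stim1 Ctrl, which is 49.6-fold over Stim1 HT (exact 95% counting interval 16.7 to 243). DESeq2 called all 4, while edgeR called 0 of them at the threshold of 0.01, with all 4 at an unadjusted p under 0.05. Cxcl2 is not in the table, which lists only genes with at least 1 count in each library. Of 4 listed genes of stressed epithelium, 2 were over 2-fold above both controls, Krt6b at 246 CPM against 24.6 and 38.2 and Krt16 at 105 CPM against 17.9 and 14.2. Krt6a was at 381, 201 and 187 CPM, and Sprr1a lay between the controls at 67.5, 34.0 and 97.5 CPM. Their part in the ligand levels was not tested.

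Precursor and mature neutrophil genes were then compared. The 7 precursor genes had a median log2 fold change of -3.08, with 5 over 2-fold below both controls and 1 above. Within them, the median was -3.52 for the 3 primary granule genes but -1.65 for the 4 secondary granule genes, near that of the mature genes. The 3 mature genes had a median of -1.59, with 2 of 3 over 2-fold below both. The difference of the medians was -1.49 on the log2 scale, and it was -1.93 without Ltf and Lcn2, which are also made by glands, and -0.89 without Stim1 Ctrl. Between the controls, the median log2 ratio of the Stim1 HT library to the Stim1 Ctrl library was -0.71 for the precursor genes and 0.66 for the mature genes, with no test, although Cxcr2 was at -0.37. In the wider lists described next, this median was -0.36 for the precursor and -0.29 for the mature genes. Mpo and Elane were over 2-fold lower in Stim1 HT than in Stim1 Ctrl, as were 3.64% of all genes, whereas Ltf and Camp were over 2-fold higher. The share of all genes over 2-fold higher was not counted.

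The share of primary granule genes among the counts of primary granule genes and alarmins needs no scaling between libraries. It was 9.11% in Stim1 cKO (95% Wilson interval 7.57-10.9) against 18.4% in Stim1 HT (17.1-19.8) and 43.8% in Stim1 Ctrl (42.2-45.5). Intervals of the 3 libraries did not overlap, and Stim1 HT was nearer to Stim1 cKO than to Stim1 Ctrl. The spread between mice of 1 genotype is not known for this share.

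**Figure D3:**
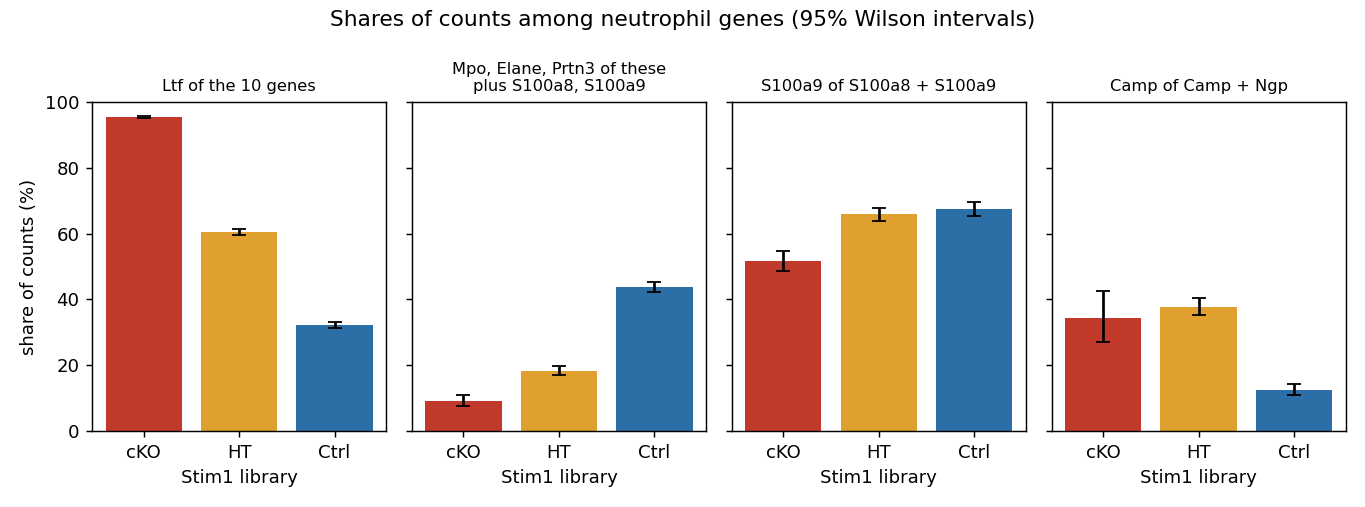
Shares of counts (%) in the Stim1 cKO, Stim1 HT and Stim1 Ctrl libraries, with 95% Wilson intervals that cover counting error only: Ltf among the 10 genes, the primary granule genes among these and the alarmins, S100a9 among the alarmins, and Camp among Camp and Ngp. The share of Ltf ran from 95.4% in Stim1 cKO to 32.3% in Stim1 Ctrl, and that of the primary granule genes from 9.11% to 43.8%.

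In wider lists that left out the 10 genes, the distance between precursor and mature genes was smaller. The median log2 fold change was -0.81 over 12 further granule genes and -0.11 over 14 tested genes of mature neutrophils, a difference of -0.70. Of the 12, the 4 primary granule genes had a median of -3.52, and the 8 of later granules 0.60, above the mature genes. Of the mature list, 3 genes were over 2-fold below both controls and 2 above. Stfa2l1, of a stefin, had 22, 219 and 262 counts in Stim1 cKO, Stim1 HT and Stim1 Ctrl, and Retnlg, of a resistin-like protein, had 19, 103 and 205. Mmp9, of gelatinase B, was at 89.5, 420 and 650 CPM, and it is also an osteoclast gene. Acp5 and Ctsk, markers of osteoclasts, were at 86.5, 440 and 446 CPM and at 184, 739 and 742 CPM. The part of osteoclasts in the level of Mmp9 was not tested. Il1b, of interleukin 1 beta, was higher with 165, 9 and 8 counts, and Clec4d with 47, 11 and 19. Mxd1 (log2 fold change 0.37) and Ltb4r1 (0.63) lay above both controls by less than 2-fold. DESeq2 called Mmp9, Stfa2l1 and Retnlg as lower and Il1b as higher, and edgeR called 0 of the 14, with 3 lower and 2 higher at an unadjusted p under 0.05. Ly6g, the surface marker of mouse neutrophils, had 1, 7 and 6 counts and was not tested.

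**Figure D4:**
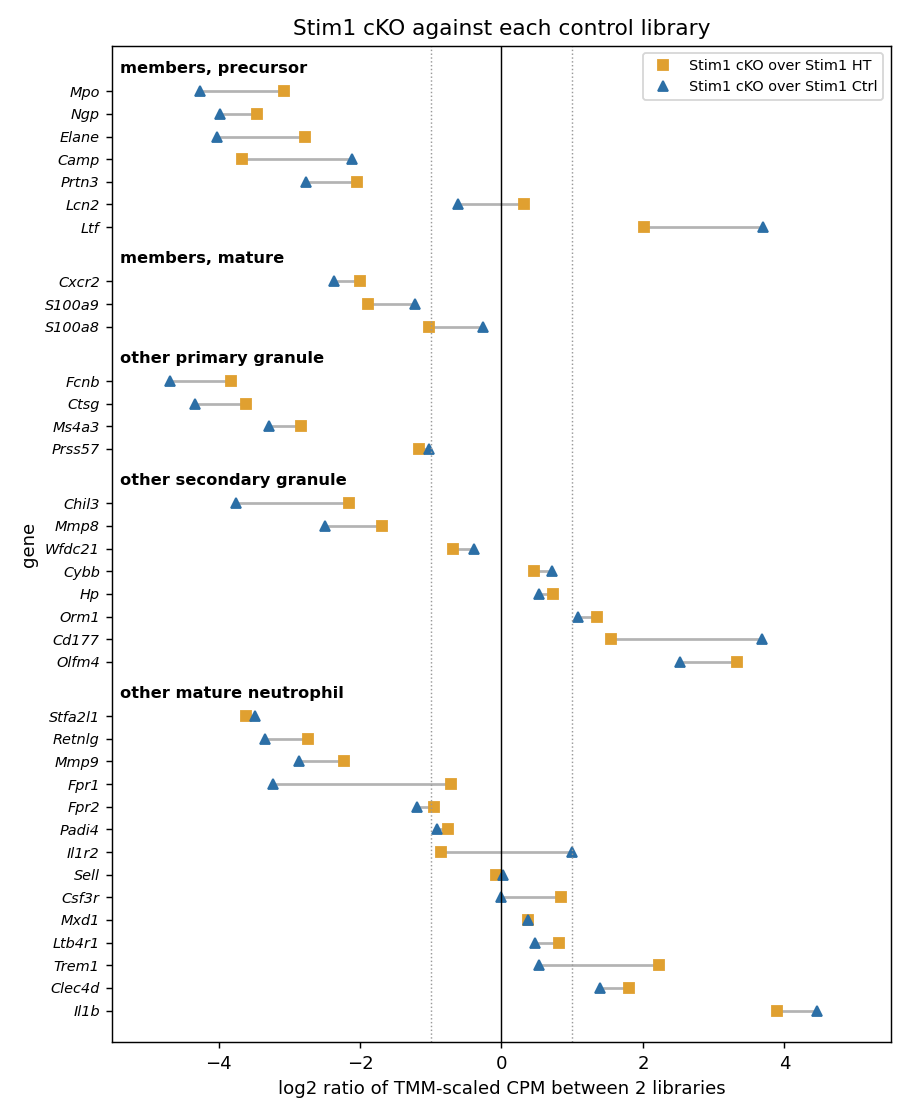
Log2 ratio of TMM-scaled CPM of Stim1 cKO to Stim1 HT (squares) and to Stim1 Ctrl (triangles) for the 10 genes and for the tested genes of 3 wider neutrophil lists, 1 library each, with dotted lines at 2-fold. The primary granule genes lie to the left of the 2-fold line against both controls (median log2 fold change against the grouped controls -3.52 for the 3 genes and -3.52 for the 4 further ones), while the other secondary granule and mature genes lie on both sides.

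Of 5 genes of transcription factors of the granulocyte lineage, 3 were over 2-fold below both controls, as were 8.23% of all genes tested. Spi1, which encodes PU.1, was at 8.76 CPM in Stim1 cKO against 19.5 in Stim1 HT and 19.6 in Stim1 Ctrl. Spi1 is also expressed by macrophages and B cells. Gfi1, a repressor needed for neutrophil maturation, had 14, 36 and 41 counts. Cebpe, which drives secondary granule genes, had 1 count in Stim1 cKO, under the limit of detection, against 26 in Stim1 HT and 34 in Stim1 Ctrl. Stim1 HT was 32.0-fold above Stim1 cKO in Cebpe, with an exact 95% counting interval of 5.25 to 1310. Cebpa (log2 fold change -0.29) and Cebpd (-0.64) were below both controls by less than 2-fold. DESeq2 and edgeR called 0 of the 5, with 2 at an unadjusted p under 0.05 in edgeR.

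Of 6 genes of the phagocyte NADPH oxidase, which feeds myeloperoxidase with its substrate, 1 was over 2-fold below both controls and 0 above, with a median log2 fold change of -0.75. Rac2 was at 13.9, 32.7 and 28.5 CPM in Stim1 cKO, Stim1 HT and Stim1 Ctrl, while Cybb, the catalytic subunit gene, was at 15.6, 11.3 and 9.52 CPM. Of the inhibitors of the granule proteases, Serpinb1a was at 28.1, 51.2 and 50.3 CPM and Slpi, which is also a product of mucosal epithelia, at 69.2, 12.8 and 38.2 CPM. DESeq2 and edgeR called 0 of these genes, with 2 oxidase genes and 1 inhibitor gene at an unadjusted p under 0.05 in edgeR.

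Most genes of erythroid cells, of proliferation and of monocytes and macrophages were also lower in Stim1 cKO. Of 10 tested erythroid genes, 6 were over 2-fold below both controls and 0 above, with a median log2 fold change of -1.44. Slc4a1, of the anion exchanger band 3, had 293 counts in Stim1 cKO against 1533 in Stim1 HT and 4687 in Stim1 Ctrl, which is the same order as Mpo. This order was not shared by the whole list. Between the controls, 6 of the 10 erythroid genes were lower in Stim1 HT, while the most highly expressed ones were higher there. Of 6 proliferation genes, 4 were over 2-fold below both controls and 0 above, with Mki67 at 68.6, 167 and 252 CPM. Of 10 monocyte and macrophage genes, 5 were over 2-fold below both controls and 1 above, with Csf1r at 33.7, 89.6 and 103 CPM. Genes of all leukocytes were nearer to the controls, with 0 of 8 over 2-fold from both and a median of -0.24. Of these 8, 5 were below both controls, 2 lay between them and 1 was above both. Lcp1, the highest of the list, was at 62.42, 85.95 and 86.35 CPM, and Laptm5 at 38.1, 64.8 and 71.4 CPM. The gene above both was Ptprc, of CD45, at 19.2, 14.2 and 9.44 CPM. The part of these cells in the levels of the neutrophil genes was not tested.

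Divided by exon length, levels can be compared between the genes. In Stim1 cKO, Ltf led at 418 CPM per kb, followed by S100a9 at 42.4 and S100a8 at 29.9, and all other genes were under 10 CPM per kb. In Stim1 HT, S100a9 led at 156 CPM per kb, before Ltf at 104 and S100a8 at 61.1. In Stim1 Ctrl, S100a9 led at 99.1 CPM per kb, before Ngp at 49.8, S100a8 at 36.0 and Ltf at 32.4. Cxcr2 stood last in each library, at 0.163, 0.650 and 0.842 CPM per kb. With 1 library per genotype the spread of these levels is not known, so near neighbours in the order, such as Mpo and Elane in Stim1 cKO at 0.591 and 0.588 CPM per kb, cannot be ranked.

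The genes whose pattern over the 3 libraries was most like that of the granule genes were sought in 14977 genes that averaged 50 counts or more, by the distance of centred log2 CPM to the median profile of the 7 granule genes. The nearest were Col4a1 at a distance of 0.156 and Slc27a6, followed by Tpsab1, Mamstr, Vgll2, Fibin, Mafa, Awat1, Srl and Chrnd, the last at 0.206. Of the neutrophil genes that were ranked, which left out Cxcr2 for its low counts, the nearest was Prtn3 at 0.329. Closer than Prtn3 were 58 other genes. Col4a1, of basement membrane collagen, had 4177, 17778 and 36210 counts in Stim1 cKO, Stim1 HT and Stim1 Ctrl, and Tpsab1, of a mast cell tryptase, had 59, 274 and 562. With 3 libraries, many genes share such a pattern.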

How the data were processed

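RNA of the whole incisor enamel organ was sequenced in 3 libraries, 1 per genotype. The authors aligned trimmed reads with STAR and deposited raw counts per gene symbol, without normalization. Genome build, annotation, counting tool and strand setting are not given in the sources used here. The study names a directional NEBNext kit and the labels a SMARTER kit. In 25 rows, with 0.154% of the counts, the symbol had become a date. Each library of the table was assigned to its genotype by its label.

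The Stim1 cKO library was set against both controls together with edgeR 4.0.16, run in R 4.3.3 (TMM, filterByExpr, quasi-likelihood test, Benjamini-Hochberg adjustment over 18702 genes). Genes were called at an adjusted p under 0.01 and a fold change over 2. DESeq2 1.42.0 was the alternative. The residual degrees of freedom were 1. P-values rest on the difference between 2 control libraries. Both tests were run on simulated data to check that fold changes set beforehand were recovered. The simulated controls were drawn as replicates, unlike the controls here, so that run cannot show how the p-values behave here. Ratios between single libraries have no test. Shares have 95% Wilson intervals, and low counts an exact interval from scipy 1.17.1. Positions and exon lengths are those of GENCODE M21 on GRCm38, matched by symbol, and promoters those of RefSeq on GRCm38.p6.

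Members and lists were chosen with earlier results of these data known. Of each list, up to 4 genes with the highest mean CPM were named. Mmp8, Olfm4, Orm1, Retnlg, Il1b, Clec4d, Ly6g, Cebpe, Ptprc, Slc4a1, Xist, Ddx3y and the mucosal gland list were named or chosen after their values were seen. Other scalings, filters, thresholds and libraries left out were tried. A gene of the erythroid list is not reported here.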

Additional observations from a re-analysis of the deposited data

How the results depend on the processing

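No paired analysis was possible because each genotype has 1 library. Of the values of single genes under alternatives with a test, 60 kept direction and side of the threshold, 8 passed it (6 with DESeq2, 2 without a low-count filter) and 1 changed sign. With either control left out, which allows no test, 19 kept direction and 1 changed sign. Both changes of sign were of Lcn2, at 0.05 (0.0485) with library size only and 0.31 without Stim1 Ctrl (-0.61 to 0.31 when either control was left out). The number of the 10 genes called, 0 in edgeR, was 6 with DESeq2, 2 without a low-count filter and 2 at an adjusted p under 0.05 (Mpo and Ngp in both). The median log2 fold change of the 10 genes (-2.32) was -2.05 with library size only, -2.24 to -2.02 when either control was left out, and -2.76 without Ltf and Lcn2, an alternative chosen after seeing the data. The difference between precursor and mature genes (-1.49) was -0.70 with the wider lists and -0.89 without Stim1 Ctrl. The number of genes over 2-fold below both controls was 6 or 7 where both controls were kept. Without Stim1 Ctrl, 8 genes were over 2-fold below Stim1 HT, and without Stim1 HT, 7 were over 2-fold below Stim1 Ctrl. Library size only moved the median of all genes to 0.25 and upper-quartile scaling to 0.12, from -0.01. With a mean of at least 50 counts, Cxcr2 was not tested. The depth limits Elane and Cxcr2 most, with 14 and 12 counts in Stim1 cKO.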

Other observations

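All tested lymphocyte genes were higher in Stim1 HT than in Stim1 Ctrl, whereas 6 of the 10 neutrophil genes were lower there. Neither set had a single order of the 3 libraries. Of 7 tested B-lineage genes, 1 was over 2-fold above both controls in Stim1 cKO and 1 over 2-fold below both, while 6 were over 2-fold higher in Stim1 HT than in Stim1 Ctrl. Cd79a, of the B-cell receptor complex, had 169 counts in Stim1 cKO against 79 in Stim1 HT and 23 in Stim1 Ctrl, while Ms4a1, of CD20, had 121, 76 and 8. Cd79b, the highest of the list by mean CPM, was at 5.87, 6.35 and 1.94 CPM, highest in Stim1 HT. All 6 tested genes of T and NK cells were over 2-fold higher in Stim1 HT than in Stim1 Ctrl, with Cd3g at 41, 32 and 3 counts. Cd4, the highest of that list by mean CPM, had 70, 92 and 46 counts. In edgeR and DESeq2, 0 genes of both lists were called, and 0 had an unadjusted p under 0.05 in edgeR.

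Of 4 tested genes of eosinophils, basophils and mast cells, 3 were over 2-fold below both controls in Stim1 cKO and 0 above. Of 5 tested megakaryocyte and platelet genes, 3 were over 2-fold below both and 0 above. Cpa3, of mast cell carboxypeptidase, was at 4.38 CPM in Stim1 cKO against 26.5 in Stim1 HT and 35.4 in Stim1 Ctrl, while the mast cell protease gene Mcpt4 at 9.75, 30.9 and 33.0 CPM. Pf4, of platelet factor 4, was at 8.59, 32.0 and 31.4 CPM, in contrast to Ppbp, the other platelet chemokine gene, at 55.9, 13.1 and 19.3 CPM. DESeq2 called Cpa3, Mcpt4 and Pf4 as lower and Ppbp as higher, whereas edgeR called 0 of them, with adjusted p-values between 0.0217 and 0.0346. Itga2b, of the platelet integrin, was at 10.9, 11.1 and 12.8 CPM, and Gp1bb, of a platelet glycoprotein, was above both controls at 5.83, 4.37 and 5.75 CPM. Neither test called them.

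Connective tissue genes were also lower in Stim1 cKO, with 3 of 5 fibroblast genes and 4 of 7 bone genes over 2-fold below both controls, at median log2 fold changes of -1.47 and -1.32. Of 7 enamel organ genes, 3 were over 2-fold below both controls and 1 above.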
